A study of Homo sapiens with 4 samples.

Results

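The genes described here are the inflammatory chemokines CXCL1, CXCL2, CXCL3, CXCL5, CXCL8 and CCL20 and the cytokines IL6, LIF, IL1A and IL1B, measured in PC3, a human cell line grown from a prostate cancer metastasis in bone. They were chosen by gene symbol, with earlier results of these arrays known. The array held 41091 probe sets that its annotation gives to a single gene, for 19775 genes. Of these probe sets, 17 belong to the 10 genes described here. Each probe set is a group of short probes read as one intensity. The COUP-TFII siRNA group (2 arrays) had been transfected with 40 nM of siRNA duplexes aimed at the orphan nuclear receptor COUP-TFII, a transcription factor. The control siRNA group (2 arrays) had received 40 nM of a control siRNA. Total RNA of all 4 was taken 48 h after transfection, and all cells were grown with fetal bovine serum. The labels do not say whether the 2 arrays of a group came from separate transfections, so p-values reflect no more than array-to-array spread, perhaps only technical.

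CXCL1, CXCL2, CXCL3, CXCL5 and CXCL8 are secreted chemokines that carry a glutamate-leucine-arginine motif and act on the receptor CXCR2, which draws neutrophils to inflamed tissue and also stimulates endothelial cells. CCL20 acts on CCR6 of dendritic cells and lymphocytes, IL6 and LIF signal through receptors that share the subunit gp130 (IL6ST) and activate STAT3, and both forms of IL1 act on IL1R1 with its partner IL1RAP. Their genes are classical targets of the transcription factor NF-kappaB, and many of their messenger RNAs are short-lived because AU-rich elements recruit decay factors. Several prostate cancer lines, PC3 among them, are known to secrete CXCL8 and IL6 without an added stimulus.

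The 4 arrays had median intensities between 31.7 and 32.9 and correlated across probe sets at r = 0.988 within COUP-TFII siRNA, 0.987 within control siRNA and 0.975 to 0.979 between the groups. For ACTB, the 3′ control probe set over the 5′ one, which reflects RNA integrity, gave ratios of 1.42 and 1.46 on the COUP-TFII siRNA arrays and 1.52 and 1.83 on the control siRNA arrays. The same ratio for GAPDH ran the other way, at 0.9939 and 0.9862 on the COUP-TFII siRNA arrays and 0.9568 and 0.9859 on the control siRNA arrays. Neither ratio overlapped between the groups, and their part in the results below was not tested. Of 7 epithelial and PC3 markers, KRT8, KRT18, KRT19, EPCAM, CDH1 and VIM read 1703 or more on all arrays, and KRT5 lay between 1 and 4.31. KRT8 (log2 change 0.16) and KRT18 (0.13) passed as higher, and EPCAM (−0.24), CDH1 (−0.30) and VIM (−0.36) as lower. Of 4 luminal prostate markers, TMPRSS2 passed as higher (1.35). Of 16 measured markers of macrophages, lymphocytes and neutrophils, 0 passed the limma test and 0 had an unadjusted p under 0.05. Their summed intensities lay in overlapping ranges for lymphocytes (78.1 to 95.3 in COUP-TFII siRNA, 88.2 to 104.4 in control siRNA) and neutrophils (151 to 172 in COUP-TFII siRNA, 156 to 161 in control siRNA). For macrophages the sums were 93.4 to 109.6 in COUP-TFII siRNA and 77.3 to 84.6 in control siRNA, without overlap, with CD14, CD163 and MRC1 averaging 16 or less over the 4 arrays. The 6 fibroblast markers summed to 1115 and 1100 in COUP-TFII siRNA and 793 and 702.4 in control siRNA, without overlap. COL1A1 made up most of each sum, at 961.6 and 949.6 in COUP-TFII siRNA and 598.6 and 540.3 in control siRNA. It passed as higher (log2 change 0.73). The other 5 did not pass, at −0.17 for COL1A2, −0.36 for COL3A1, −0.35 for DCN, −0.03 for LUM and 0.21 for PDGFRB. The 5 endothelial markers summed to 285.7 and 232.4 in COUP-TFII siRNA and 199.1 and 207.6 in control siRNA, also without overlap. None of the 5 passed in limma, PECAM1 and CDH5 had an unadjusted p of 0.0392 and 0.0458, and VWF, CDH5, KDR and TEK averaged 16 or less over the 4 arrays. The part of these markers in the results was not tested. The transcript that the siRNA targets was not analysed here, so the labels were not checked against it.

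Most of these genes were lower after COUP-TFII siRNA. They were chosen with earlier results of these arrays known, so the counts below are not those of a blind choice. Of the 10 genes, 8 passed as lower, 1 as higher (IL1A) and CXCL2 failed to pass, and their median log2 change was −0.73. Each gene is represented by its brightest probe set, passing over those marked _x_at (open to cross-hybridisation) where it has another. A gene passed when its limma p, adjusted by Benjamini-Hochberg over all genes, was under 0.05. Over all 19775 genes, 10.3% passed as lower and 12.7% as higher, 23.0% in all, with a median of 0.01. These were 2039 and 2519 genes, and 1353 and 4119 after centring on housekeeping genes. The centring moved that median to 0.14 and left 7 members lower and 1 higher. It used the median level of 21 housekeeping genes on each array, which need not be the same gene on all. Before centring, the 21 genes had a median log2 change of −0.03, with 3 passing as lower and 4 as higher. The 8 lower members were 5 with 1 prior variance for all genes, where CXCL3, CCL20 and LIF lost their call, 5 without control siRNA replicate 2 and 5 without COUP-TFII siRNA replicate 2. Fold changes are on the scale log2(intensity + 16), which understates changes of dim probe sets. In whole-culture RNA, fewer cells expressing a gene and less RNA per cell cannot be told apart.

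CXCL8 (interleukin-8) and CXCL5 had the largest falls among the CXCR2 ligands by their representing probe sets, but this order depends on the probe set: with _x_at probe sets allowed, the log2 change was −1.70 for CXCL5, −1.07 for CXCL2 and −1.02 for CXCL8. For CXCL8, the representing probe set read 1395 and 1195 on the COUP-TFII siRNA arrays, against 4709 and 5184 on the control siRNA arrays. Every COUP-TFII siRNA array was far below every control array, a log2 change of −1.92 ± 0.08 (SE, with an adjusted p of 1.73e-06 in limma). A second CXCL8 probe set, marked _x_at, read 5125 and 4471 in COUP-TFII siRNA, against 9545 and 9952 in control siRNA. It also fell without overlap, but by less, with a 95% interval of −1.18 to −0.86 for its log2 fold change against −2.12 to −1.73 for the first probe set.

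CXCL1, the melanoma growth stimulatory chemokine, read 1826 and 1632 in COUP-TFII siRNA, against 3171 and 3487 in control siRNA. Its log2 fold change was −0.94 ± 0.07 (SE, with an adjusted p of 2.67e-05 in limma), and the groups lay well apart. CXCL5, a chemokine made mainly by epithelial cells, read 46.1 and 59.0 in COUP-TFII siRNA, against 171 and 155 in control siRNA, a log2 change of −1.39 ± 0.16 (SE, with an adjusted p of 0.000355 in limma). The brighter _x_at probe set of CXCL5 read 182 and 180.2 in COUP-TFII siRNA, against 626 and 619.7 in control siRNA. Both CXCL5 probe sets put every COUP-TFII siRNA array below every control array, at 0.323 and 0.291 of the control mean. The dimmest CXCL5 probe set read 1 on both COUP-TFII siRNA arrays, a value that many probe sets share, and 5.11 and 14.5 on the control arrays, and did not pass.

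CXCL3 and CXCL2 are close relatives of CXCL1. CXCL3 read 313 and 297 in COUP-TFII siRNA, against 423 and 496 in control siRNA, a log2 change of −0.56 ± 0.10 (SE, with an adjusted p of 0.00326 in limma). The groups did not overlap, yet the call depended on single arrays: the adjusted p was 0.0702 with control siRNA replicate 2 left out, 0.0541 and 0.0708 with COUP-TFII siRNA replicate 1 or 2 left out, and 0.0244 with control siRNA replicate 1 left out. For CXCL2 the result depended on the probe set. The representing one was dim, at 33.6 and 29.8 in COUP-TFII siRNA and 32.7 and 50.1 in control siRNA, and its groups overlapped (log2 fold change −0.25, 95% interval −0.76 to 0.25; limma adjusted p = 0.502). The bright _x_at probe set of CXCL2 read 408 and 341 in COUP-TFII siRNA, against 788 and 816 in control siRNA, without overlap, and its log2 change of −1.07 ± 0.09 passed (SE, with an adjusted p of 0.000544 over all probe sets in limma). Whether that probe set also reads CXCL1 or CXCL3 was not tested.

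**Figure D1:**
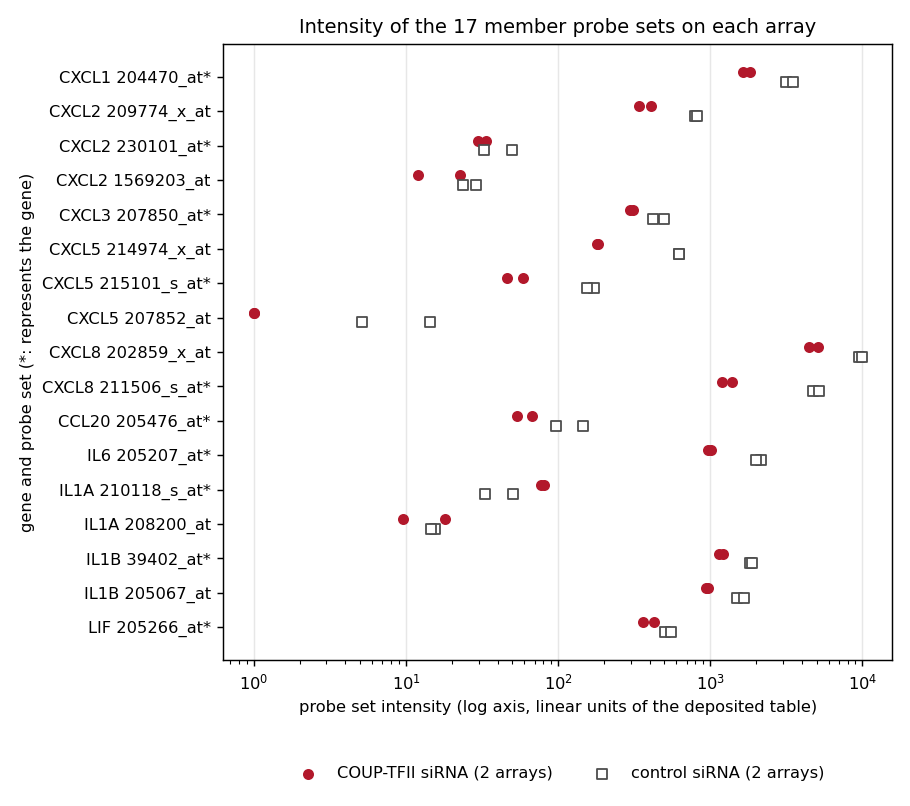
Intensity (log axis) of the 17 probe sets of the 10 genes, with 2 COUP-TFII siRNA arrays as filled circles and 2 control siRNA arrays as open squares; an asterisk marks the probe set that represents its gene. In 14 rows both circles lie left of both squares, in 1 row (IL1A) both lie right of them, and in 2 rows the groups overlap.

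The starts of the CXCR2 ligand genes share a sequence that the choice of genes did not use. Promoter sequences from RefSeq (GRCh38.p14, 250 bases before to 50 after each start) were at hand for 9 of the 10 genes. The shown stretches run from 150 to 41 bases before the start, and the capitals mark GGAATTTCC, a form of the NF-kappaB binding sequence, with the related GGATTTTCC in IL6 and TGANTCA, the AP-1 type sequence, in CXCL8. The motifs, picked after the sequences had been read, were searched on both strands, and none overlapped another in these windows. The CXCL6 stretch is shown for contrast with CXCL5.
CXCL8: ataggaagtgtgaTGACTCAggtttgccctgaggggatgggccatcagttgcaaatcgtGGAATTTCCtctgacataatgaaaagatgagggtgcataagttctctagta
CXCL1: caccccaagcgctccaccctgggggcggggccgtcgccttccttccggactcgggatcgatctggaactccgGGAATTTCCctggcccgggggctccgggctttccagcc
CXCL2: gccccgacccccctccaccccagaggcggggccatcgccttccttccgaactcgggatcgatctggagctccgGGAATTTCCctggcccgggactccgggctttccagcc
CXCL3: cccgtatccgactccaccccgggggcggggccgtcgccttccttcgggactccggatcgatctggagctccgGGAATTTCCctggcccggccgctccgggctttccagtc
CXCL5: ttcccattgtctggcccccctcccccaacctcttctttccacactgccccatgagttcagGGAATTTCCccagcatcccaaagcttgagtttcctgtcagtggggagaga
CXCL6: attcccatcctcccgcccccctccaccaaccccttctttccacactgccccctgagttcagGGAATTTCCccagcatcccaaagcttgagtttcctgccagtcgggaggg
IL6: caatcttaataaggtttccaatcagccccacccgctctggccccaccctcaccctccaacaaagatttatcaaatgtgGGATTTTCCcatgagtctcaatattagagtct
The stretches lie at chr4:73740419-73740528 (plus strand) for CXCL8, chr4:73869243-73869352 (plus strand) for CXCL1, chr4:74099236-74099345 (minus strand) for CXCL2 and chr4:74038730-74038839 (minus strand) for CXCL3. Those of CXCL5, CXCL6 and IL6 are chr4:73998718-73998827 (minus strand), chr4:73836528-73836637 (plus strand) and chr7:22727050-22727159 (plus strand).

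GGAATTTCC stood in all 5 CXCR2 ligand promoters, 91 bases before the start in CXCL8, 90 in CXCL5, 78 in CXCL1 and CXCL3 and 77 in CXCL2 (first base of the match). It occurred in 0.461% of 35116 promoter windows. GGATTTTCC, in IL6 at 72 bases before the start, occurred in 0.336%. TGANTCA, at 137 bases in CXCL8, occurred in 7.71%, and of the other members it stood in the IL1A windows. AGGTCA, the core sequence that nuclear receptors of the COUP-TF kind bind in pairs, stood in 1 member, CCL20, and in 13.8% of windows. A match is only a run of letters and says nothing of binding. Of 83 other measured genes with GGAATTTCC, CXCL6 among them, 12 (14.5%) passed as lower and 15 (18.1%) as higher. Their median log2 fold change was 0.05. Over all genes, 10.3% passed as lower and 12.7% as higher.

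CXCL6, the remaining chemokine of this kind that was bright in PC3, was not lower. It read 1724 and 1725 in COUP-TFII siRNA, against 1483 and 1612 in control siRNA, a log2 fold change of 0.16 (95% interval 0.02 to 0.29; limma adjusted p = 0.0996). Across the 250 bases before the start, the CXCL5 and CXCL6 promoters were 85.3% identical, more than CXCL1 and CXCL3 (81.4%), and CXCL6 carries GGAATTTCC as well, 89 bases before its start. The log2 intensity of CXCL5 minus that of CXCL6 was −4.81 and −4.54 in COUP-TFII siRNA and −3.00 and −3.25 in control siRNA, a difference of −1.55. The exact two-sided permutation p was 0.333, the smallest that 2 arrays against 2 can give. After centring on housekeeping genes, CXCL6 passed as higher (log2 fold change 0.28, limma adjusted p = 0.00582).

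All 5 CXCR2 ligand genes lie in one cluster on chromosome 4. Of the other protein-coding genes in and beside it, taken as the span of the 5 with 3 genes on each side, MTHFD2L, a mitochondrial folate enzyme gene next to CXCL2, passed as lower. It read 466 and 414 in COUP-TFII siRNA, against 717 and 707 in control siRNA, a log2 change of −0.68 ± 0.08 (SE, with an adjusted p of 0.000378 in limma). The platelet chemokine genes PF4, PF4V1 and PPBP within the cluster and AFP, AFM, RASSF6 and EREG beside it did not pass, with log2 fold changes from −0.50 for AFM to −0.09 for EREG. All of these except RASSF6 averaged under 40 in both groups, and EPGN was not measured by a probe set of its own.

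**Figure D2:**
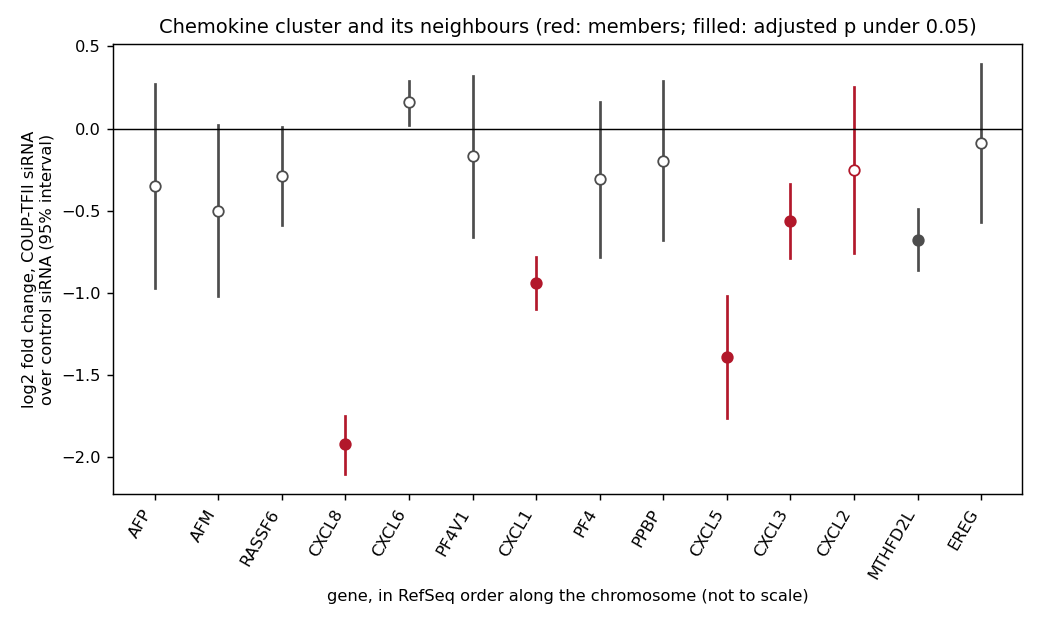
Log2 fold change, COUP-TFII siRNA over control siRNA, with 95% intervals, for the measured protein-coding genes of the chemokine cluster on chromosome 4 in RefSeq order; members are red, and filled points passed. CXCL8, CXCL5, CXCL1 and CXCL3 lie below 0, from −1.92 to −0.56, while CXCL6, between CXCL8 and CXCL1, lies at 0.16.

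CCL20 was also lower. Its only probe set read 67.2 and 53.8 in COUP-TFII siRNA, against 97.3 and 145.7 in control siRNA, a log2 change of −0.83 ± 0.20 (SE, with an adjusted p of 0.0181 in limma). The control arrays differed from each other by more than the COUP-TFII siRNA arrays did, and the groups did not overlap. The call was lost without control siRNA replicate 2 (adjusted p = 0.196, log2 fold change −0.57), with either COUP-TFII siRNA array left out (0.115 for replicate 1, 0.19 for replicate 2), and held without control siRNA replicate 1 (0.041). The receptor gene CCR6 was near the background, at 21.3 and 5.74 in COUP-TFII siRNA and 9.35 and 3.50 in control siRNA.

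IL6, the interleukin that drives acute-phase and STAT3 responses, fell to less than 0.5 of its control level. It read 1009 and 973 on the COUP-TFII siRNA arrays, against 2158 and 1998 on the control siRNA arrays. The log2 fold change was −1.06 ± 0.06 (SE, with an adjusted p of 7.56e-06 in limma), and the adjusted p stayed at or under 0.00696 with any array left out. LIF, the leukaemia inhibitory factor of the same family, changed less. It read 427 and 363 in COUP-TFII siRNA, against 501 and 554 in control siRNA, a log2 change of −0.40 ± 0.10 (SE, with an adjusted p of 0.0166 in limma). Its adjusted p was 0.0873 without control siRNA replicate 1, 0.196 without control siRNA replicate 2 and 0.136 without COUP-TFII siRNA replicate 2, 0.0426 without COUP-TFII siRNA replicate 1, and 0.0597 after centring on housekeeping genes (log2 fold change −0.28).

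The ligand-binding receptors of both cytokines were lower too, while their common subunit did not pass. IL6R, the IL6 receptor alpha chain, read 206 and 199 in COUP-TFII siRNA, against 527 and 498 in control siRNA, a log2 change of −1.27 ± 0.09 (SE, with an adjusted p of 1.94e-05 in limma). LIFR, the LIF receptor chain, read 56.0 and 62.8 in COUP-TFII siRNA, against 250.2 and 247 in control siRNA, a log2 change of −1.81 ± 0.13 (SE, with an adjusted p of 2.7e-05 in limma). In both genes the groups lay far apart, and 2 of 3 IL6R and 3 of 5 LIFR probe sets passed as lower. With probe sets averaged, both passed with smaller log2 changes, −0.73 for IL6R and −0.84 for LIFR. IL6ST read 1288 and 1216 in COUP-TFII siRNA, against 1255 and 1139 in control siRNA, and its groups overlapped (95% interval of the log2 fold change −0.09 to 0.22). OSMR, the oncostatin M receptor chain that also pairs with IL6ST, fell by 0.45 ± 0.07 on the log2 scale (SE, with an adjusted p of 0.00122 in limma). It passed in 1 of 3 probe sets, with an adjusted p of 0.0624 when its probe sets were averaged and 0.0621 with 1 prior variance for all genes. IL11RA, the IL11 receptor chain, was at 0.40 and did not pass (limma adjusted p = 0.133). It passed after centring on housekeeping genes (0.0346) and with dim genes left out (0.0159), a fit whose calls deserve little weight. With probe sets averaged IL11RA did not pass (log2 change 0.30, limma adjusted p = 0.341).

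The 2 forms of IL1 differed in direction. IL1B, the form that is secreted after cleavage by caspase-1, read 1221 and 1149 in COUP-TFII siRNA, against 1826 and 1881 in control siRNA. Its log2 fold change was −0.64 ± 0.06 (SE, with an adjusted p of 8.17e-05 in limma), and a second probe set fell by 0.72 ± 0.07 on the same scale. Both IL1B probe sets separated the groups. IL1A, the form that is active as a precursor and often stays with the cell, read 80.3 and 77.2 in COUP-TFII siRNA, against 33.1 and 50.5 in control siRNA, a log2 change of 0.73 ± 0.20 (SE, with an adjusted p of 0.0309 in limma). Its call was weak. In the fit over all probe sets the same values had an adjusted p of 0.0696, with any array left out it was 0.0572 to 0.213, and the other IL1A probe set, at 18.1 and 9.51 in COUP-TFII siRNA and 15.4 and 14.7 in control siRNA, overlapped between the groups.

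On the receptor side of IL1, IL1RAP, the accessory chain, read 55.3 and 27.8 in COUP-TFII siRNA, against 109.1 and 179 in control siRNA. Its log2 fold change was −1.48 ± 0.28 (SE, with an adjusted p of 0.00456 in limma), with 1 of 2 probe sets passing. The adjusted p was 0.0814 with 1 prior variance for all genes, 0.103 with COUP-TFII siRNA replicate 2 left out and 0.112 with control siRNA replicate 2 left out, so the call rested on both of these arrays. The signalling receptor IL1R1 and the decoy receptor IL1R2 did not pass, at log2 fold changes of 0.03 (95% interval −0.33 to 0.39) and −0.11 (−0.54 to 0.33). Among the remaining receptors, CXCR1 (−0.17) did not pass and CXCR2 and ACKR1, a chemokine-scavenging receptor, averaged under 25 in both groups. In all, 4 of 12 receptor genes passed as lower and 0 as higher in limma, against 10.3% and 12.7% of all genes. At an unadjusted limma p under 0.05, IL11RA was higher.

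At the level of single probe sets, 12 of the 17 passed as lower and 0 as higher in a fit over 54613 probe sets, of which 5.67% passed as lower and 6.51% as higher (limma). The 5 that did not pass were both IL1A probe sets, the 2 dim CXCL2 probe sets and the dimmest of CXCL5, and IL1A at an unadjusted p of 0.00966 was the nearest to a rise. In 14 probe sets every COUP-TFII siRNA array was below every control array, in 1 every one was above, and in 2 the groups overlapped. Over all probe sets 24.1% were separated with COUP-TFII siRNA lower and 26.3% with COUP-TFII siRNA higher. The count of 12 was 5 without control siRNA replicate 1, 3 without control siRNA replicate 2 and 2 with 1 prior variance for all probe sets.

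**Figure D3:**
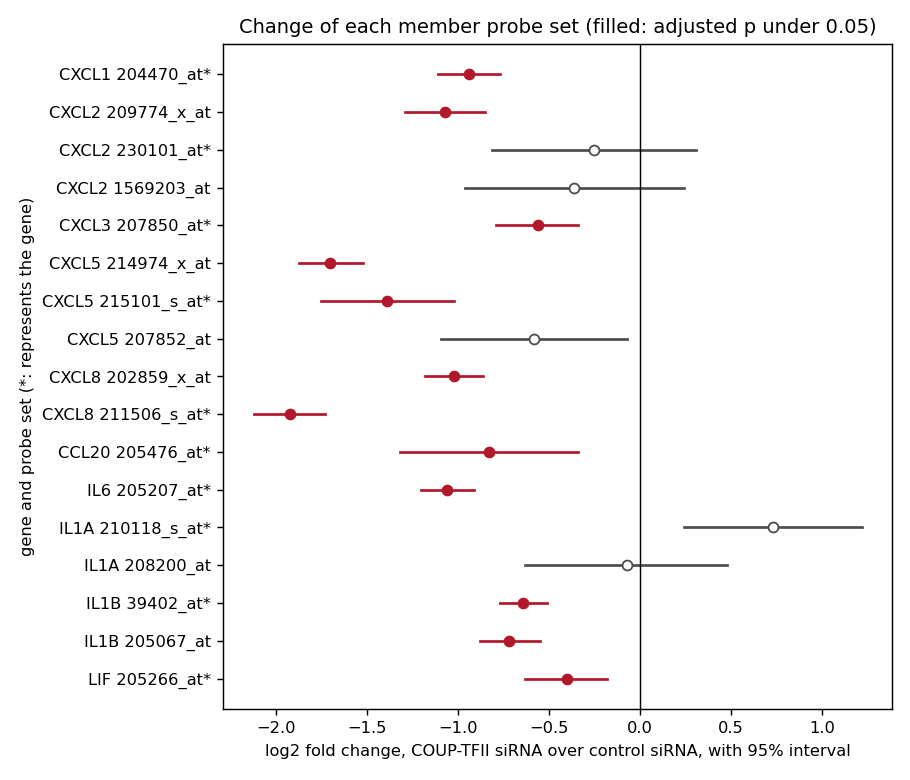
Log2 fold change of each of the 17 probe sets, COUP-TFII siRNA over control siRNA, with the 95% interval from the fit over all probe sets; filled points passed at an adjusted p under 0.05. The 12 filled points all lie below 0, and the IL1A probe set that represents its gene is the 1 point clearly above it.

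The other genes of these pathways, taken from 9 lists with 116 measured genes, did not share one direction. Of these, 20 (17.2%) passed as lower, 16 (13.8%) as higher and 80 failed to pass, around a median of −0.02. Over all genes the shares were 10.3% lower and 12.7% higher, to be set beside the counts of the single lists as well. These lists were drawn up with earlier results of the same arrays known. In the 15 other chemokines, CXCL10, the interferon-induced CXCR3 ligand, passed as lower at 64.7 and 45.1 in COUP-TFII siRNA, against 157 and 169.7 in control siRNA. CCL5 passed as higher, at 23.6 and 32.4 in COUP-TFII siRNA and 9.26 and 11.7 in control siRNA, a call lost whichever array was left out (adjusted p of 0.0972 to 0.196 in limma). The other 13, and all 3 remaining chemokines of the glutamate-leucine-arginine and platelet group, did not pass.

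Among 18 further cytokines, 2 fell, 1 rose and 15 did not pass. IL23A, a subunit of interleukin-23, read 867 and 767 in COUP-TFII siRNA, against 1172 and 1247 in control siRNA, a log2 change of −0.56 that 1 of its 4 probe sets carried (−0.11 for their average). IL7, a lymphocyte growth factor, fell by 1.02 ± 0.23 on the log2 scale, at 7.94 and 14.9 in COUP-TFII siRNA and 41.2 and 37.0 in control siRNA (SE; limma adjusted p = 0.0108) and kept its call only without COUP-TFII siRNA replicate 2 (0.0496) of the 4 fits with an array left out. IL11, a relative of IL6, rose by 0.62 ± 0.16 (SE; limma adjusted p = 0.0205), opposite to IL6 and LIF, and its adjusted p was 0.0506 to 0.187 with an array left out and 0.271 for the average of its probe sets. IL18, a caspase-1 substrate like IL1B, read 1231 and 1137 in COUP-TFII siRNA and 1151 and 1016 in control siRNA and did not pass (95% interval of the log2 fold change −0.05 to 0.30).

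Genes that process or transmit the IL1 signal split evenly, 4 of 14 lower, 4 higher and 6 not passing. CASP1, the protease that cleaves IL1B, fell by 1.08 ± 0.23 on the log2 scale (SE; limma adjusted p = 0.00853). It was dim, at 4.42 and 7.41 in COUP-TFII siRNA and 25.5 and 35.8 in control siRNA, with 1 of 5 probe sets passing, and its average over them did not pass (−0.38, adjusted p = 0.126). PYCARD, the inflammasome adaptor, fell by 0.67 ± 0.17 and the receptor-proximal kinase gene IRAK2 by 0.56 ± 0.11 (SE, log2 scale). TOLLIP, an inhibitor of IL1 receptor signalling, rose by 0.55 ± 0.10. Smaller changes passed as higher for TRAF6 (0.47), MYD88 (0.41) and CAPN1 (0.38), and as lower for CAPN2 (−0.16). MYD88 read 1743 and 1661 in COUP-TFII siRNA, against 1292 and 1260 in control siRNA (limma adjusted p = 0.000868). Values of TRAF6, MYD88, CAPN1 and CAPN2 with single arrays left out are not given here. With an array left out, CASP1 passed only without control siRNA replicate 1 (adjusted p = 0.0419), TOLLIP only without COUP-TFII siRNA replicate 1 (0.0287), IRAK2 only without either COUP-TFII siRNA array (0.00887 and 0.0353) and PYCARD in none (0.0828 to 0.179).

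Below the IL6 and LIF receptors, 3 of 11 genes of the JAK-STAT3 list rose, 0 fell and 8 did not pass (limma; at an unadjusted p under 0.05, SOCS3 was lower). JAK1, the kinase bound to IL6ST, read 2230 and 2116 in COUP-TFII siRNA, against 1639 and 1520 in control siRNA, a log2 change of 0.46 ± 0.06 (SE, with an adjusted p of 0.000647 in limma), with 1 of 5 probe sets passing and an adjusted p of 0.0864 for their average. TYK2 (0.34) and PTPN11 (0.24) rose less. TYK2 lost its call whichever array was left out (adjusted p = 0.0634 to 0.112), and PTPN11 kept its call only with COUP-TFII siRNA replicate 2 left out (0.0423). SOCS3, the feedback inhibitor that STAT3 induces, read 459 and 431 in COUP-TFII siRNA, against 519 and 497 in control siRNA, a log2 fold change of −0.19 whose adjusted p was 0.136.

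Regulators of NF-kappaB and C/EBP mostly failed to pass, 14 of 17, and their median was 0.07. RELA, the main activating subunit, read 1777 and 1690 in COUP-TFII siRNA, against 1589 and 1608 in control siRNA, and CEBPB, which also acts on IL6 and CXCL8, read 3959 and 3782 in COUP-TFII siRNA, against 3635 and 3721 in control siRNA. Neither passed, and the intervals of their log2 fold changes are narrow (−0.01 to 0.24 for RELA, −0.04 to 0.18 for CEBPB). IKBKB, the activating kinase, and the inhibitor gene NFKBIE rose by 0.55 and 0.48, and NFKBIA, the inhibitor that NF-kappaB itself induces, fell by 0.23 on the log2 scale. None of these 3 calls held in a limma fit without any one array (adjusted p of 0.0738 to 0.103 for IKBKB, 0.0546 to 0.0672 for NFKBIE and 0.0515 to 0.284 for NFKBIA), and NFKBIA stood at 0.14 when its probe sets were averaged.

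Other inflammatory genes that NF-kappaB induces did not fall together: of 13, 3 fell, 3 rose and 7 did not pass. SOD2, the mitochondrial superoxide dismutase, read 430 and 345 in COUP-TFII siRNA, against 209 and 217 in control siRNA, a log2 change of 0.81 ± 0.12 (SE, with an adjusted p of 0.00112 in limma). TNFAIP2 (0.42) also passed as higher, and with an array left out only without control siRNA replicate 2 (adjusted p = 0.021). PTX3, the long pentraxin of innate immunity, read 3627 and 3340 in COUP-TFII siRNA, against 4604 and 4518 in control siRNA, a log2 change of −0.39 ± 0.05 (SE, with an adjusted p of 0.0008 in limma). Its values with single arrays left out are not given here. The complement gene C3 (−0.49) and the transcription factor gene IRF1 (−0.40) also passed as lower. Without single arrays, C3 passed in none of the 4 fits (0.135 to 0.17), and IRF1 only without COUP-TFII siRNA replicate 1 (0.0212). The adhesion molecule gene ICAM1 read 577 and 467 in COUP-TFII siRNA and 480 and 501 in control siRNA, and its groups overlapped.

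Genes listed for the decay of AU-rich messenger RNAs and its control moved in both directions, with 5 of 13 lower, 2 higher and 6 not passing. The 2 higher were ZFP36L1 and MAPKAPK2 (log2 change 0.23), and not every gene of the list is itself a decay factor. ZFP36 and ZFP36L2, relatives of ZFP36L1 by name, were among the 5 lower. Their log2 changes were −0.34 and −0.23 (limma adjusted p = 0.0308 and 0.0325). In the fit over all probe sets, 0 of 4 ZFP36L2 probe sets passed. ZFP36L1, which binds AU-rich elements and promotes decay, read 2193 and 2399 in COUP-TFII siRNA, against 1018 and 1061 in control siRNA, a log2 change of 1.13 ± 0.06 (SE, with an adjusted p of 6.21e-06 in limma). KHSRP, another such binding protein, read 927 and 869 in COUP-TFII siRNA, against 2036 and 2090 in control siRNA, a log2 change of −1.19 ± 0.06 (SE, with an adjusted p of 3.87e-06 in limma). The decapping enzyme gene DCP2 fell by 1.17 ± 0.10 and HNRNPD, which encodes the AU-rich binding protein AUF1, by 0.56 ± 0.05 (SE, log2 scale). All 4 kept their call with any array left out, and 2 of 4 probe sets of ZFP36L1, KHSRP and DCP2 and 4 of 9 of HNRNPD passed in its direction. With probe sets averaged, all 4 passed with smaller log2 changes, 0.65 for ZFP36L1, −0.91 for KHSRP, −0.42 for DCP2 (adjusted p of 0.046 in limma) and −0.36 for HNRNPD. CXCL1, CXCL5, CXCL8, IL6 and IL1B were likewise called with each array left out.

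**Figure D4:**
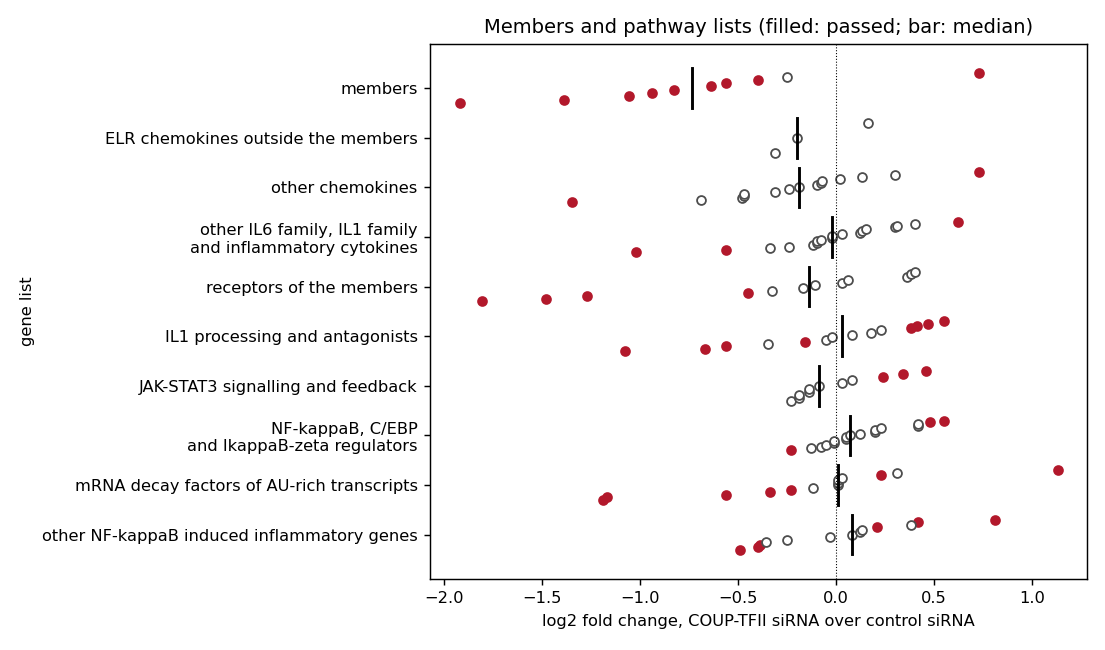
Log2 fold change, COUP-TFII siRNA over control siRNA, of each measured gene of the members and of the 9 pathway lists; filled points passed and black bars are list medians. The members' median lies at −0.73, while the medians of the other lists lie between −0.20 and 0.08.

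The genes whose profile over the 4 arrays came closest to that of CXCL8, by Euclidean distance between log2 values centred on each gene's mean, were FAM98A, NF2, CLDN11, FANCI and LINC00261, at distances of 0.169 to 0.192. Their log2 fold changes ran from −2.07 to −1.77 by the representing probe sets. With probe sets averaged the falls were smaller, at −0.76 for NF2, −0.79 for CLDN11 and −1.02 for FAM98A. The smallest fall under any alternative was −1.11 for FANCI and −1.03 for LINC00261. LINC00261 was dim, at 24.4 and 15.5 in COUP-TFII siRNA and 106.7 and 107.3 in control siRNA. Among the members CXCL5 was nearest to CXCL8, at 0.665, with 153 other genes closer, and IL6 next, at 0.893, with 288 closer. With 4 arrays in 2 groups such likeness is mostly a like size of change between the groups.

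**Figure D5:**
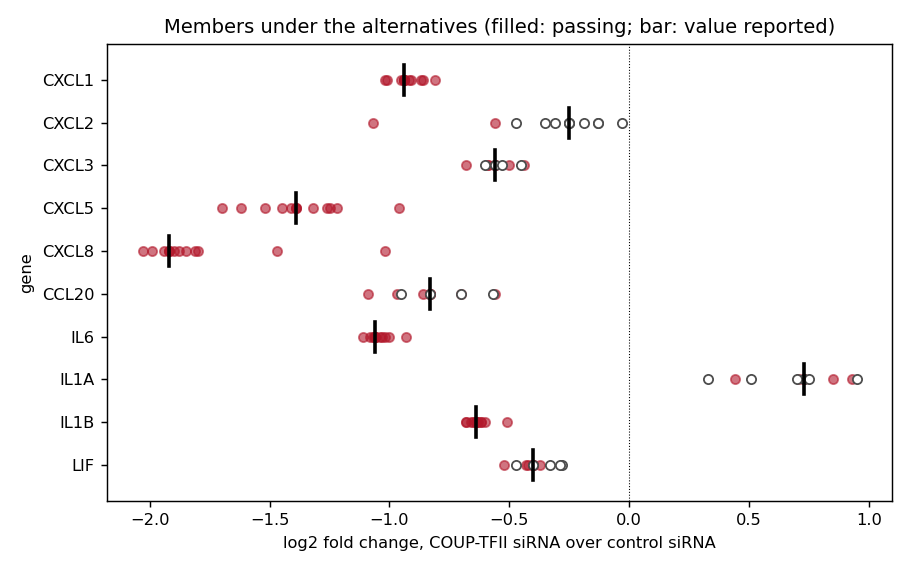
Log2 fold change of each of the 10 genes under the alternative settings, with filled points where the gene passed, open points where it did not, and a bar at the reported value. CXCL1, CXCL5, CXCL8, IL6 and IL1B are filled throughout, CXCL8 ranging from −2.03 to −1.02, while CXCL2 is filled at 2 of its points.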

How the data were processed

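Per the labels' protocols, Trizol-extracted total RNA was biotin-labelled for 1-colour Affymetrix arrays. The authors deposited one linear intensity for each of 54675 probe sets. How they summarised and normalized it is not given in the sources used here. There are no detection calls, and 31.4% to 33.0% of an array's values lay below 16. Precision is limited by having 4 arrays. Medians spanned 3.66%, so arrays were not rescaled.

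Intensities were used as log2(value + 16). The probe table gave 1 gene to 41091 probe sets, several to 1801 and none to 11721, and 62 control probe sets were left out. Symbols were updated through Entrez identifiers (41037 matched). limma 3.58.1 in R 4.3.3 (lmFit, eBayes with intensity trend) compared the groups over all genes and, separately, all probe sets, with 2 residual degrees of freedom (8.78 moderated), and was tested on simulated data. All members and receptors were named, up to 4 passing genes per list, the cluster's neighbours and the 5 genes most like CXCL8. Others in the text (RELA, CEBPB, SOCS3, IL18, ICAM1, PTX3 and the cell type markers) were picked after their values were seen. The same holds for TRAF6, MYD88, CAPN1, CAPN2, MAPKAPK2, ZFP36 and ZFP36L2. Members and lists were chosen with earlier results of these data known. Alternatives covered the replicate block, quantile normalization, centring on the median of a housekeeping list, pseudocounts of 1 and 64, dim features, the prior variance, probe set choice, a threshold of 0.01 and each array left out. Promoters were aligned with Biopython 1.88, and figures drawn with matplotlib 3.10.9.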

Additional observations from a re-analysis of the deposited data

How the results depend on the processing

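The number of members passing as lower, 8, stayed between 5 and 9 in all alternatives; it was 5 with 1 prior variance for all genes and 5 to 7 with 1 array left out. The 1 member passing as higher, IL1A, was 0 with 1 prior variance, with averaged probe sets, at a threshold of 0.01, with each array left out (0 to 0) and with dim genes left out, which removed IL1A itself. Member probe sets passing as lower, 12, were 2 with 1 prior variance and 3 to 9 with an array left out; those passing as higher, 0, were 1 after centring on housekeeping genes and 1 with dim probe sets left out. Genes of the pathway lists passing as lower, 20, were 8 with 1 prior variance, 13 with averaged probe sets, 12 at a threshold of 0.01 and 9 to 12 with an array left out, and those passing as higher, 16, were 27 after that centring, 3, 6 and 7 in the first 3 of these settings and 4 to 6 with an array left out. Over all genes, 2039 lower and 2519 higher, the counts were 814 and 754 with 1 prior variance, 887 to 1370 and 885 to 1222 with an array left out, 1532 and 1631 with averaged probe sets, and 1353 and 4119 after that centring, which shifted the all-gene median to 0.14 (log2). Over all probe sets, 3094 lower and 3554 higher, 1 prior variance gave 355 and 172, that centring 2267 and 6967, leaving out dim probe sets 4446 and 5483, and leaving out an array 403 to 1522 and 314 to 1017. NFKBIA turned in direction, at 0.14, with averaged probe sets. Of 751 values of the 59 named genes under alternatives, 123 had another call. Same-numbered arrays of the 2 groups deviated together at a correlation of 0.010. That is little shared deviation across probe sets, but it cannot show whether those arrays were handled together, which the labels do not say. With the replicate block 8 members passed as lower and 1 as higher, and 2277 genes as lower and 2850 as higher. Why the calls depend on the prior variance was not tested. CXCL2 and IL1A, both dim, have no value with dim genes left out. That limma fit gave CXCL8 an adjusted p of 2.72e-216 from 4 arrays, so its calls deserve little weight.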
